A study of Mus musculus with 3 samples.

Results

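The clustered histone genes of the mouse were examined in lists of Smad3 and JMJD3 peaks from neural stem cells. Every gene was taken whose symbol, as given in either list for the gene closest to a peak, begins with Hist1h, Hist2h, Hist3h or Hist4h. The rule gave 62 of the 16428 genes named in the lists, 61 named in the Smad3 list and 54 in the JMJD3 list. By cluster they were 48 Hist1 genes on chromosome 13, 10 Hist2 genes on chromosome 3, 3 Hist3 genes on chromosome 11 and 1 Hist4 gene on chromosome 6. By product they were 5 genes for the linker histone H1, 16 for H2A, 17 for H2B, 12 for H3 and 12 for H4, with the pseudogene symbols Hist3h2bb-ps and Hist2h3c2-ps counted under H2B and H3.

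Both lists were made by ChIP-seq, in which DNA recovered with an antibody to a chromatin protein is sequenced, with 1 library for Smad3 and 1 for JMJD3. An input library without antibody was not used here as a list. All libraries came from wild-type neural stem cells of the cerebral cortex, taken from embryos at E12.5, grown with EGF at 20 ng/ml and FGF at 10 ng/ml and treated with TGFb at 5 ng/ml, for 30 minutes in both immunoprecipitations. No untreated library was compared, so no value below is a response to TGFb. The Smad3 list held 98086 peaks and the JMJD3 list 63154, without heights, fold enrichments, p-values or read numbers, so the depth behind a peak is unknown and, with no replicate, no difference was tested. Of the neural stem cell markers Nes, Sox2, Pax6, Hes1, Hes5, Fabp7 and Vim, all 7 had a promoter peak of both factors. Of 8 markers of microglia, endothelium, mesenchyme and oligodendrocytes, 2 had a Smad3 promoter peak (Cd68 and Col1a1) and 0 had a JMJD3 promoter peak. Peaks hold no expression, so these marker counts describe promoters and not the purity of the culture.

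Clustered histone genes supply the bulk of histone protein in S phase, when new DNA is packaged. They have short transcribed units, mostly without introns, and many mRNAs that end in a conserved stem loop in place of a poly(A) tail. H3 and H4 form the central tetramer of the nucleosome, H2A and H2B join it as dimers, and H1 binds the linker DNA. Many H2A and H2B genes stand head to head and share the short stretch between their start sites. Smad3 is a transcription factor that enters the nucleus after TGF-beta receptors phosphorylate it. JMJD3 is an enzyme, encoded by Kdm6b, that takes a repressive methyl mark off histone H3.

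The promoters shown here are examples of genes with both factors, with Smad3 alone and with neither, and do not represent the motifs of those classes. Each is the RefSeq promoter of assembly GRCm38.p6, 250 bases before to 50 bases after the start site, 5′ to 3′ on the gene's strand, with the TATA element (TATAAA), the binding box of NF-Y (CCAAT) and the octamer known from H2B genes (ATTTGCAT) in capitals on either strand. Hist1h2ae (chr13:23571171-23571470, minus strand) faces its H2B partner Hist1h2bg and had both factors. Hist1h2aa (chr13:23934187-23934486, plus strand), a testis H2A gene, had a promoter peak of neither.
Hist1h2ae: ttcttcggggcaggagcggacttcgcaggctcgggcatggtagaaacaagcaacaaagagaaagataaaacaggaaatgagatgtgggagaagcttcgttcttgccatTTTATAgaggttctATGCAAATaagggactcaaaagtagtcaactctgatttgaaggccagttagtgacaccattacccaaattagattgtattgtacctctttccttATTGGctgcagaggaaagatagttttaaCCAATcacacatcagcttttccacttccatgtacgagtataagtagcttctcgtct
Hist1h2aa: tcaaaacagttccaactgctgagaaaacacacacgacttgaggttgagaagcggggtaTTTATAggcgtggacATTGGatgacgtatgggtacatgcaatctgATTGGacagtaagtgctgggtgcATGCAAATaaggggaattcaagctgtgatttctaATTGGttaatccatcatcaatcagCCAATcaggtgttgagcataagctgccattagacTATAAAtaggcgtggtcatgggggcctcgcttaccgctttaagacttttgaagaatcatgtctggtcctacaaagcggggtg
The next promoters are H3 genes, Hist1h3d (chr13:23575513-23575812, plus strand) with both factors and Hist1h3i (chr13:21783348-21783647, minus strand) with Smad3 only.
Hist1h3d: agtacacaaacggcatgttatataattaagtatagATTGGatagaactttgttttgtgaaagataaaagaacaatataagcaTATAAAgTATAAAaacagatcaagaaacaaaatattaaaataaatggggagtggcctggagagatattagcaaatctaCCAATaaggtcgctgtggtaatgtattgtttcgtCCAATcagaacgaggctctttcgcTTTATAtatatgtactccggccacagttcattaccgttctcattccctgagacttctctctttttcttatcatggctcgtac
Hist1h3i: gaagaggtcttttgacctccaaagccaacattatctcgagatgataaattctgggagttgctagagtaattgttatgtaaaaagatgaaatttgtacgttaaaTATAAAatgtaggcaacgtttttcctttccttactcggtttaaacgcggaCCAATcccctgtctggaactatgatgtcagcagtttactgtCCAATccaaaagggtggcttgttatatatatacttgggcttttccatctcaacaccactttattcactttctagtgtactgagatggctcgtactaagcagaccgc
The last are H4 genes, Hist1h4d (chr13:23581318-23581617, plus strand) with both factors and Hist1h4i (chr13:22041313-22041612, minus strand) with Smad3 only.
Hist1h4d: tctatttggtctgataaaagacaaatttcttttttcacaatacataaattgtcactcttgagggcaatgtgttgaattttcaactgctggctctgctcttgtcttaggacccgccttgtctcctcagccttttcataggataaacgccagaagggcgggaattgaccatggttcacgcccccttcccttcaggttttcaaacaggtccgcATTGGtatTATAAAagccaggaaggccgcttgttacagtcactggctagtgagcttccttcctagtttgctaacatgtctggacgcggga
Hist1h4i: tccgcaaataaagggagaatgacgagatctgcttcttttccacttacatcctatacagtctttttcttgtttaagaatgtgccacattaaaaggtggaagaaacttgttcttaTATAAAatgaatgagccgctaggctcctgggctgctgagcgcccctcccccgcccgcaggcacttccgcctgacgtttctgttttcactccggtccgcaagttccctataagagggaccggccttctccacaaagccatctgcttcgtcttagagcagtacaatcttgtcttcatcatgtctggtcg
Both H3 promoters hold a CCAAT with its leftmost base 56 bp before the start site. TATAAA is in all 6 promoters shown, but not at the same place. In Hist1h2aa, Hist1h3d and Hist1h4d the nearest copy begins 32 bp before the start site, on the opposite strand in Hist1h3d. In Hist1h2ae, Hist1h3i and Hist1h4i the only copy lies 142, 147 and 137 bp before the start site, in Hist1h2ae on the opposite strand. Over all H1, H3 and H4 promoters in the table, TATAAA at any position was in 8 of 18 with a JMJD3 promoter peak and in 7 of 8 without one, and CCAAT in 14 of 18 and 4 of 8. CCAAT is in all H1 and H3 promoters and in 3 of 11 H4 promoters, so its counts depend on the mix of types. These differences were not tested. The promoter of Hist1h2aa holds the same 3 motifs as that of Hist1h2ae. Peak coordinates below are those of the files, on mm9, and are not to be compared with these GRCm38.p6 positions.

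Promoter peaks of Smad3 were present at nearly all clustered histone genes named in the lists, and those of JMJD3 at most of them. A promoter peak is a peak that names the gene as its closest and has its midpoint within 1 kb of the transcription start site (TSS). Smad3 had one at 61 of 62 genes (98.4%, exact Clopper-Pearson 95% interval 91.3 to 99.96%), against 73.1% of all 16428 named genes. JMJD3 had one at 52 of 62 (83.9%, 72.3 to 92.0%), against 57.1% of all named genes. The same 52 genes had both factors, against 55.1% of all named genes, and 0 had JMJD3 alone, where 321 of the 16428 did. The intervals cover counting error only, and neighbouring genes that share a region are not independent. A gene is counted only if some peak names it as closest. In a dense cluster a gene without a promoter peak can thus drop out, while an isolated gene can be named by a distant peak. Of 70 RefSeq genes with a cluster symbol or synonym, 4 were named by no peak. The shares of members and of all named genes are therefore not strictly alike, here and in the TSS coverage below. The Smad3 list is the longer one. With equal numbers of peaks from both lists, keeping those in the widest regions, the counts were 60 for Smad3 and 52 for JMJD3. The share of all named genes under that choice is not given here.

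The member with neither factor was Hist1h2aa, which encodes the testis variant of H2A. Its nearest Smad3 region, at its partner Hist1h2ba, began 430 bp from its TSS, and the nearest JMJD3 region, also at Hist1h2ba, 369 bp away. The JMJD3 peak that named Hist1h2aa lay 11867 bp from it. Hist1h2ba, the testis H2B gene, had the narrowest Smad3 region of all members, 340 bp at chr13:24025561-24025900, and a JMJD3 region of 421 bp at chr13:24025541-24025961. Both regions lay downstream of the Hist1h2ba TSS at 24026025 and left it uncovered.

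**Figure D1:**
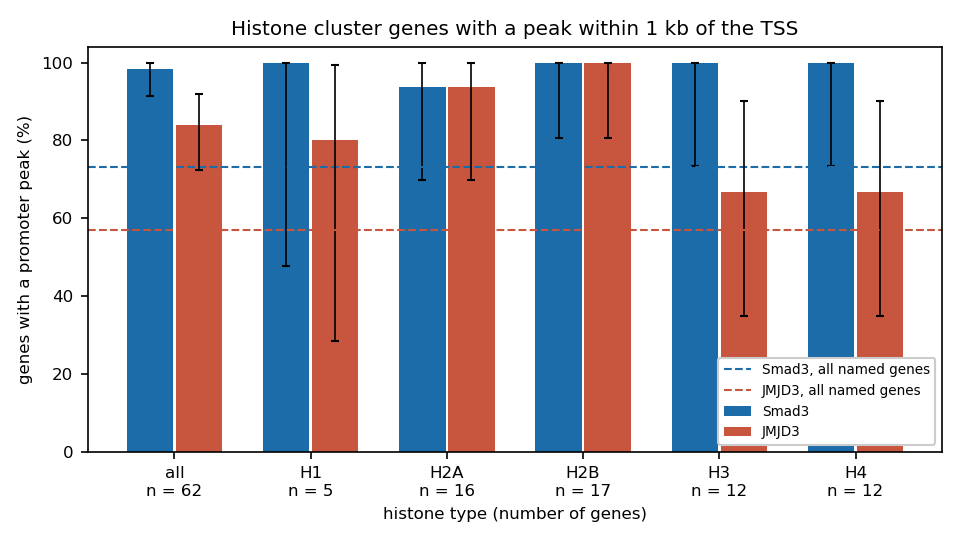
Share of clustered histone genes with a promoter peak, by histone type, for Smad3 (blue) and JMJD3 (red); black bars are exact 95% intervals and dashed lines the share over all 16428 named genes. Smad3 is at 93.8% to 100% in every type, while JMJD3 is at 66.7% for H3 and for H4 and at 93.8% and 100% for H2A and H2B.

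JMJD3 was present at the H2A and H2B genes almost throughout and was missing at part of the H3, H4 and H1 genes. It had a promoter peak at 15 of 16 H2A genes, 17 of 17 H2B genes, 8 of 12 H3 genes, 8 of 12 H4 genes and 4 of 5 H1 genes. Joined by class, 32 of 33 H2A or H2B genes (97.0%, 84.2 to 99.92%) had JMJD3, and 20 of 29 H1, H3 or H4 genes (69.0%, 49.2 to 84.7%). Over all named genes the share was 57.1%, which lies within the interval of the H1, H3 or H4 genes. Smad3 did not divide the genes this way, with 32 of 33 and 29 of 29. The 11 H2A or H2B genes without a head-to-head H2A or H2B partner among the members, called unpaired below, all had both factors. Partners that are not members were not looked for, so some of these promoters may be divergent too. The difference between the classes was not tested, because genes within a cluster are neighbours and 1 library stands behind each list.

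Smad3 alone was at 9 of 62 genes (14.5%, 6.86 to 25.8%), near the 17.9% of all named genes. These 9 genes all belong to Hist1. They are the H3 genes Hist1h3b, Hist1h3f, Hist1h3h and Hist1h3i, the H4 genes Hist1h4h, Hist1h4i, Hist1h4j and Hist1h4k, and the H1 gene Hist1h1d. Their widest Smad3 regions measured 691, 681, 910 and 1381 bp at the H3 genes in that order. At the H4 genes, again in order, they measured 2090, 960, 841 and 721 bp, and Hist1h1d had 770 bp. The median of these 9 was 841 bp, against 1476 bp at the 52 histone genes with both factors. Over all genes with a Smad3 promoter peak, those without JMJD3 also had the narrower regions, with medians of 550 bp for 2948 genes and 820 bp for 9059.

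The nearest JMJD3 region lay 350 to 6704 bp from these 9 start sites. At Hist1h3f, Hist1h3h and Hist1h3b it was 350, 596 and 638 bp, and the region in each case had been credited to a neighbouring H2A or H2B gene. At Hist1h4i it was 1130 bp, at Hist1h4h 2159 bp, at Hist1h3i 2426 bp, at Hist1h4k 2667 bp, at Hist1h1d 3089 bp and at Hist1h4j 6704 bp. Counting any peak whose midpoint lay within 1 kb of a TSS, whichever gene it named, raised JMJD3 to 56 of 62 genes and Smad3 to 62. In a dense cluster this rule also counts the peaks of neighbours, and its share over all named genes is not given here. For JMJD3 it added Hist1h3f, Hist1h3h, Hist1h3b and Hist1h2aa. No JMJD3 region reached the TSS of any of those 4 genes.

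The genes without JMJD3 were counted along chromosome 13. Members whose TSS lay within 100 kb of each other were grouped into blocks, extended by 5 kb on each side. In the block at chr13:21803012-21929027, 2 of 6 H1, H3 or H4 genes had JMJD3 (Hist1h1b and Hist1h4m), and all 7 H2A or H2B genes did. In the block at chr13:22122421-22140098 the H4 gene Hist1h4i lacked it while all 4 H2A or H2B genes had it. In the largest block, chr13:23617912-23860536, 13 of 17 H1, H3 or H4 genes and 11 of 11 H2A or H2B genes had JMJD3. The last block, chr13:24021025-24031330, holds the testis pair, with JMJD3 at 1 of 2 genes. These counts are small, and no difference between blocks was tested. All 14 genes of Hist2, Hist3 and Hist4 had both factors.

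The H3 count depended on narrow regions. A filter kept the 50% of each list's peaks that lay in the widest regions (runs of peaks at most 10 bp apart). With it, 4 of 12 H3 genes and 6 of 12 H4 genes had JMJD3, against 15 of 16 H2A and 16 of 17 H2B genes. The filter ranks peaks by the region that holds them, so it favours genes at wide regions. Over all histone genes that filter left 60 with Smad3 and 44 with JMJD3, while 53.3% and 37.5% of all named genes kept a promoter peak. Hist1h3e, an H3 gene, was counted from a JMJD3 peak of 410 bp at a distance of -951 bp from its TSS, the only JMJD3 peak just inside the 1 kb limit that decided a gene. Just outside the limit was a JMJD3 peak 1032 bp from Hist1h1c, a gene that had other promoter peaks.

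**Figure D2:**
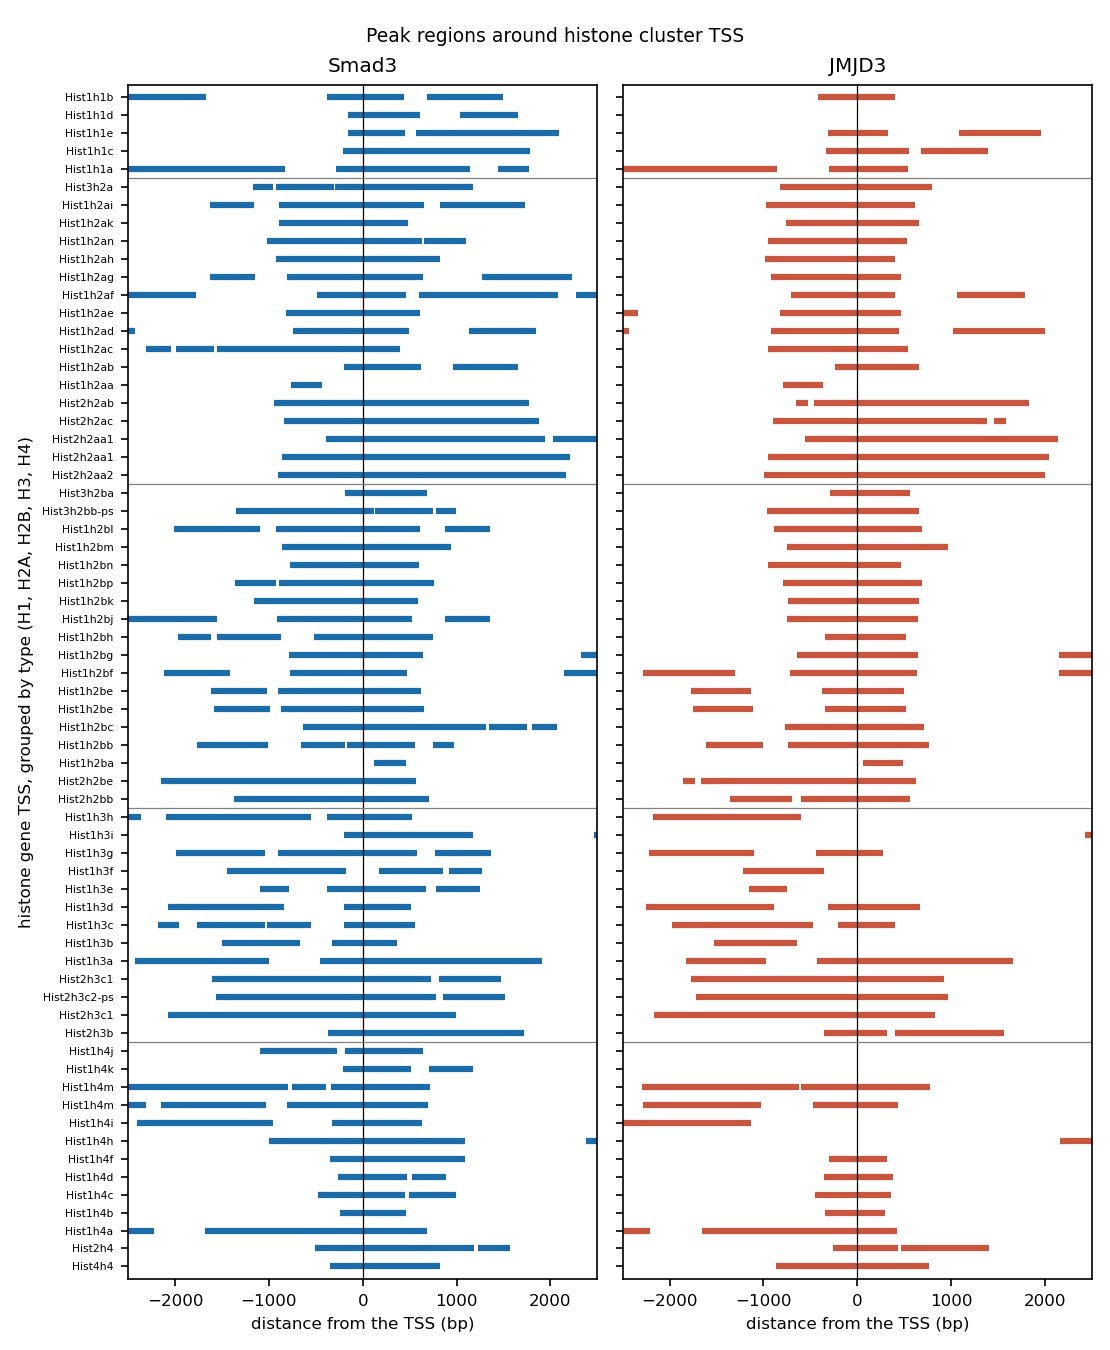
Peak regions of Smad3 (blue) and JMJD3 (red) within 2500 bp of each clustered histone TSS, drawn to scale along the direction of transcription, with 1 row per TSS and grey lines between histone types (4 genes have 2 TSS). Smad3 regions cross nearly every TSS, and JMJD3 regions are missing at the TSS of 9 H3 or H4 genes and 1 H1 gene, and at those of the testis genes Hist1h2ba and Hist1h2aa.

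Most start sites lay under a region of each factor. A region is a run of peaks of the same list at most 10 bp apart. A Smad3 region covered the TSS of 59 of 62 genes (95.2%, 86.5 to 98.99%), the exceptions being Hist1h3f, Hist1h2ba and Hist1h2aa, against 65.4% of 17687 TSS of other genes. A JMJD3 region covered that of 50 of 62 (80.6%, 68.6 to 89.6%), the exceptions being Hist1h3e, Hist1h2ba and the 10 genes without a JMJD3 promoter peak, against 53.5% of those TSS. A Smad3 and a JMJD3 promoter region overlapped in all 52 genes with both factors, and in 45 the overlap reached 50% of each region. Over all 9059 genes with both factors this was so in 99.1% and 89.5%, so the overlap at histone genes was near the background.

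Coverage at the histone genes was higher than at other genes on both sides of the TSS, and its peak lay further downstream. Counted over the 66 TSS of the 62 genes, the covered share peaked at 200 bp downstream for Smad3 (98.5%) and at 100 bp downstream for JMJD3 (83.3%). Over the 17687 TSS of other genes it peaked for both factors 50 bp upstream, at 65.6% for Smad3 and 53.8% for JMJD3. At 500 bp downstream, 81.8% of the histone TSS lay under Smad3 and 56.1% under JMJD3, against 26.4% and 17.8% of other TSS. At 500 bp upstream it was 62.1% and 54.5%, against 28.1% and 27.2%. Further out, JMJD3 coverage of the histone TSS was greater upstream than downstream. It was 54.5% at 700 bp upstream and 27.3% at 700 bp downstream, against 14.4% and 11.3% of other TSS. Coverage counts any region at that position, also one at a neighbouring histone gene. In the 11 head-to-head pairs of an H2A and an H2B gene the partner's TSS lies 172 to 334 bp upstream. Upstream values there take in the partner's promoter and gene. The widest JMJD3 region reached a median of 737.5 bp upstream and 584 bp downstream of the TSS, and the widest Smad3 region 519 and 650 bp. Of 158 Smad3 promoter peaks at histone genes 32.3% had their midpoint upstream of the TSS, against 48.8% of all Smad3 promoter peaks. For JMJD3 it was 35.7% of 84 against 55.7%. Each peak counts only for its closest gene. In a head-to-head pair a midpoint past the partner's TSS thus counts as downstream of the partner. The upstream shares at such pairs are limited by this rule and do not by themselves show a downstream position. The histone units are short, with a median length of 439 bp over the 66 loci, and 49 were covered by Smad3 regions from end to end and 34 by JMJD3 regions. Of the 54 loci of up to 1 kb (median 394 bp), Smad3 covered 48 from end to end (88.9%) and JMJD3 34 (63.0%), against 13.9% and 9.12% of 592 units of up to 1 kb of other genes, which are shorter (median 111.5 bp). Those units were not matched by kind of gene, so the sets may be unlike. Smad3 left 1 locus without any coverage and JMJD3 left 11.

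**Figure D3:**
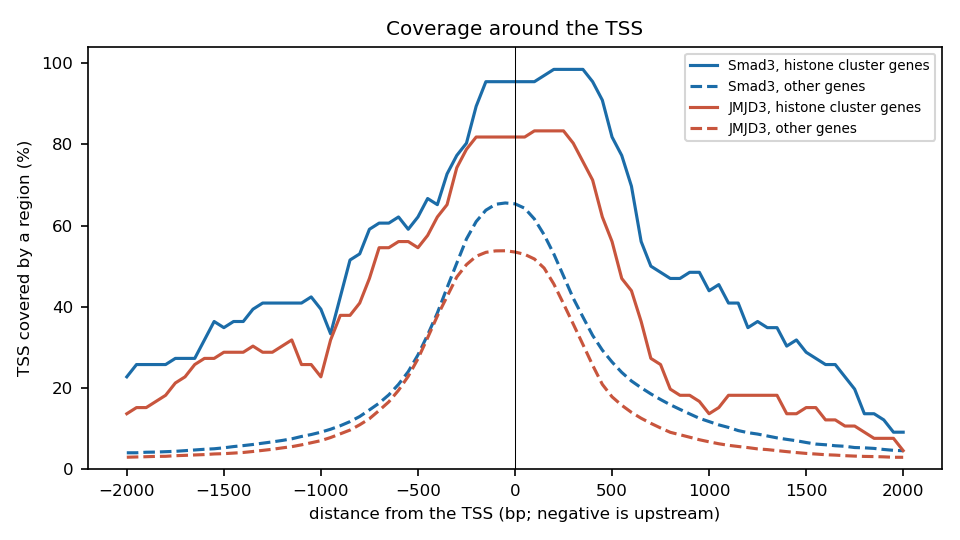
Share of TSS lying under a Smad3 (blue) or JMJD3 (red) region at each distance from the TSS, for the 66 histone TSS (solid) and 17687 TSS of other genes (dashed). The histone curves lie above those of other genes on both sides, at 62.1% and 81.8% for Smad3 and at 54.5% and 56.1% for JMJD3 at 500 bp upstream and downstream.

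Promoter regions at histone genes were wide. The widest Smad3 promoter region of a gene had a median of 1440 bp over 61 histone genes (range 340 to 3070 bp), against 760 bp over all 12007 genes with a Smad3 promoter peak. For JMJD3 the median was 1385 bp over 52 genes (410 to 2990 bp), against 860 bp over 9380. Above those medians of all genes were 51 of 61 histone genes for Smad3 and 39 of 52 for JMJD3, and 37 and 20 of them lay in the widest 10% of each. The extra width came with runs of adjoining peaks. When each peak was kept apart (peaks joined only at 0 bp), the medians were 561 bp at histone genes and 521 bp at all genes for Smad3, and 640.5 and 651 bp for JMJD3. Joined at up to 100 bp they were 1480 and 810 bp for Smad3 and 1400.5 and 880 bp for JMJD3. At up to 500 bp they were 2090 and 920 bp for Smad3 and 1446 and 910 bp for JMJD3.

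Width followed histone type for JMJD3. The median JMJD3 region was 1411 bp at the 32 H2A or H2B genes and 835 bp at the 20 H1, H3 or H4 genes, the latter close to the 860 bp of all genes. For Smad3 the corresponding medians were 1501 and 1060 bp. By type, H2A genes had medians of 1540 bp (Smad3) and 1481 bp (JMJD3), H2B genes 1441 and 1390 bp, H3 genes 1220.5 and 850 bp, H4 genes 1065 and 871 bp and H1 genes 821 and 835 bp. Unpaired H2A and H2B genes had JMJD3 regions of 850 to 2990 bp, with a median of 1160 bp. A region at a divergent pair spans both promoters, so its width is not that of 1 promoter.

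Smad3 regions were more often the wider ones at histone genes. Of the 52 genes with both factors, 36 had the wider region for Smad3 and 16 for JMJD3. Over all 9059 genes with both factors, JMJD3 was wider at 5260 (58.1%) and Smad3 at 3729 (41.2%). Among the H1 genes, for example, Hist1h1c had 2000 bp of Smad3 and 880 bp of JMJD3, and Hist1h1a 1430 and 850 bp. The converse was seen at Hist1h2bb, an H2B gene, with 730 bp of Smad3 and 1510 bp of JMJD3.

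**Figure D4:**
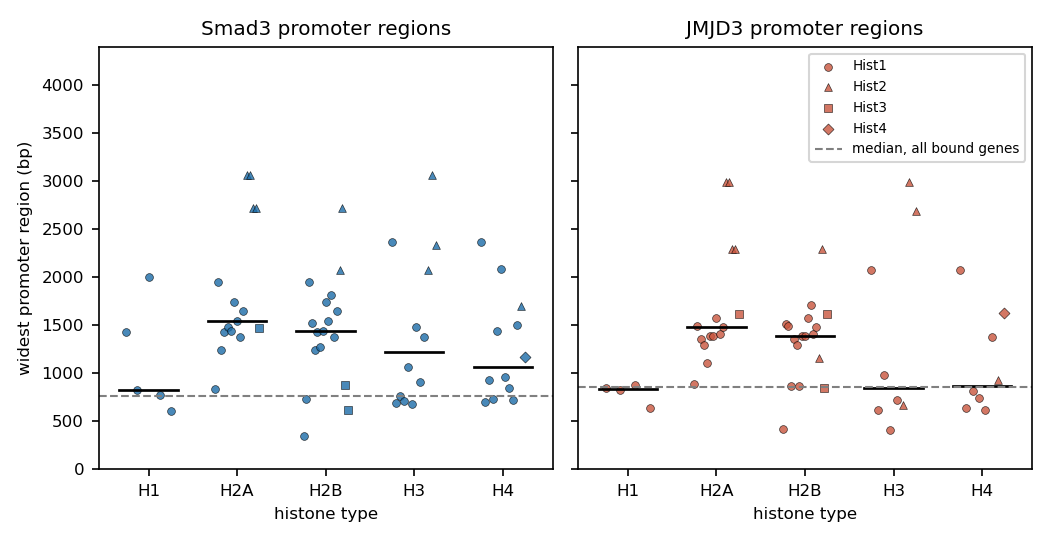
Widest promoter region of each histone gene in bp for Smad3 (left) and JMJD3 (right), by histone type, with symbols for the cluster, black lines for the median of the type and a dashed line for the median of all genes with a promoter peak of that factor. H2A and H2B medians lie at 1540 and 1441 bp for Smad3 and at 1481 and 1390 bp for JMJD3, above the dashed lines at 760 and 860 bp, while the JMJD3 medians of H1, H3 and H4 lie near 860 bp.

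The widest regions of both factors were in Hist2 on chromosome 3, where 10 genes had a median width of 2720 bp in the Smad3 list and 2290 bp in the JMJD3 list. Hist2h2aa1, Hist2h2aa2 and Hist2h3c1, encoding H2A and H3, shared a Smad3 region of 3070 bp at chr3:96048601-96051670 and a JMJD3 region of 2990 bp at chr3:96048511-96051500. The inverted copy of this group, with Hist2h3c1, Hist2h3c2-ps and Hist2h2aa1, lay under a Smad3 region of 2340 bp at chr3:96042271-96044610 and a JMJD3 region of 2690 bp at chr3:96042081-96044770. The files place the transcripts of Hist2h2aa1 and Hist2h3c1, and that of the H4 gene Hist1h4m, at 2 loci each. How reads that map to more than 1 place were handled is not given in the sources used here, so peaks at these copies cannot be assigned to one of them with certainty. Without the 5 members at duplicated loci, a check chosen after seeing the data, 56 of 57 genes had Smad3 and 47 had JMJD3, and the median widths were 1430 and 1360 bp.

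Elsewhere in Hist2, the H2A genes Hist2h2ab and Hist2h2ac and the H2B gene Hist2h2be lay under 1 Smad3 region of 2720 bp (chr3:96022891-96025610) and 1 JMJD3 region of 2290 bp (chr3:96023381-96025670). The H3 gene Hist2h3b and the H2B gene Hist2h2bb shared a Smad3 region of 2080 bp, chr3:96072251-96074330. JMJD3 had separate regions there, 670 bp at Hist2h3b and 1160 bp at Hist2h2bb. The H4 gene Hist2h4 had 1701 bp of Smad3 and 931 bp of JMJD3. That JMJD3 region lay 469 to 1399 bp downstream of the TSS, and a separate JMJD3 region, from -260 to 429 bp, covered the TSS. In Hist3, the H2B gene Hist3h2ba had 880 and 850 bp. The pair Hist3h2bb-ps and Hist3h2a had 1 JMJD3 region of 1620 bp at chr11:58767361-58768980. The Smad3 region of 1471 bp credited to Hist3h2a also covered both start sites. A further Smad3 region of 620 bp, credited to Hist3h2bb-ps, left the TSS of that gene uncovered. The Hist4 gene Hist4h4, an H4 gene apart from the other clusters, had 1170 bp of Smad3 and 1630 bp of JMJD3.

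Of the 10 members with the highest lower percentile of both widths, 7 were Hist2 genes and the others were Hist1h3a, Hist1h4a and Hist1h2bm. The H3 gene Hist1h3a and the H4 gene Hist1h4a point the same way and shared a Smad3 region of 2370 bp (chr13:23852341-23854710) and a JMJD3 region of 2080 bp (chr13:23852601-23854680). The unpaired H2B gene Hist1h2bm had 1810 bp of Smad3 and 1710 bp of JMJD3.

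Neighbouring histone genes were often credited with the same region. Of 60 Smad3 promoter regions credited to a histone gene, 14 (23.3%) were credited to at least 2 of them, against 4.08% of all Smad3 promoter regions credited to at least 2 genes. For JMJD3 it was 13 of 41 (31.7%), against 4.32%. These regions were credited to 29 of the 61 histone genes with Smad3 (47.5%) and 27 of the 52 with JMJD3 (51.9%), against 10.2% and 9.22% of all genes with a promoter peak. Each deposited peak names 1 gene, so sharing appears only once adjoining peaks are joined, and at a joining distance of 0 bp the number of shared regions was 0 for both factors. Besides the Hist2 and Hist1h3a groups, a Smad3 region of 1481 bp was credited to both Hist1h2af and Hist1h3g, an H2A and an H3 gene. It covered the TSS of Hist1h3g but began 602 bp downstream of the Hist1h2af TSS. A separate Smad3 region covered the Hist1h2af TSS. JMJD3 had separate regions of 1110 and 720 bp at the 2 genes.

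The commonest shared unit was the divergent H2A and H2B pair. Among the members there were 11 head-to-head pairs of an H2A and an H2B gene, with 172 to 334 bp between the start sites (median 278 bp). In 10 of the 11, 1 Smad3 region covered both start sites, and in the same 10, 1 JMJD3 region did. Among 626 head-to-head pairs of other named genes with start sites at most 400 bp apart, this was so in 96.2% for Smad3 and 86.1% for JMJD3, so the sharing itself is close to that of divergent promoters at large. The width of the shared region was 1240 to 2720 bp for Smad3 (median 1505.5 bp) and 1290 to 2290 bp for JMJD3 (median 1446 bp) at the histone pairs, against medians of 890.5 and 960 bp at the other pairs. The exception among the histone pairs was the testis pair Hist1h2ba and Hist1h2aa, whose start sites are 305 bp apart.

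In the pairs, Smad3 and JMJD3 regions largely overlapped. At Hist1h2ae and Hist1h2bg, whose shared promoter is printed above, Smad3 covered chr13:23662481-23663910 (1430 bp) and JMJD3 chr13:23662621-23663910 (1290 bp). At Hist1h2ai and Hist1h2bl they measured 1540 and 1580 bp, at Hist1h2ak and Hist1h2bn 1380 and 1411 bp, and at Hist1h2an and Hist1h2bp 1650 and 1481 bp. Smad3 was the broader by a larger margin at Hist1h2ah and Hist1h2bk (1740 and 1390 bp) and at Hist1h2ac and Hist1h2bc (1950 and 1490 bp). The remaining Hist1 pairs were Hist1h2ag with Hist1h2bj (1441 and 1390 bp) and Hist1h2ad with Hist1h2bf (1240 and 1360 bp). The other 26 pairs of neighbouring histone genes within 5 kb, with start sites 43 to 4641 bp apart, lay under 1 region in 7 cases for Smad3 and 6 for JMJD3.

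**Figure D5:**
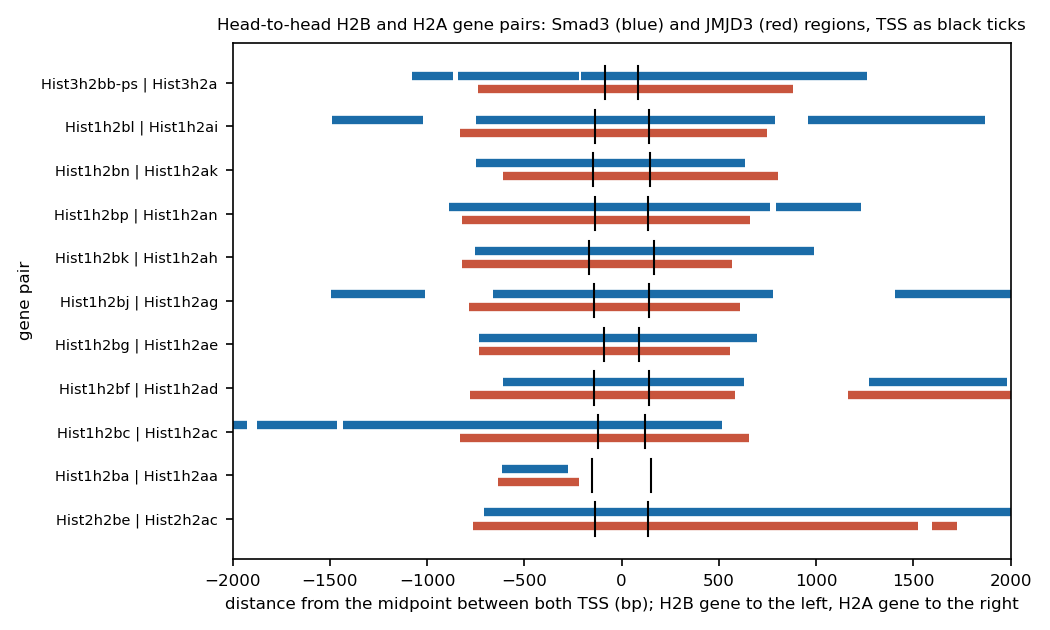
Regions of Smad3 (blue) and JMJD3 (red) at the 11 head-to-head pairs, with distance in bp from the midpoint between both start sites (black ticks) and the H2B gene to the left. In 10 pairs both factors cover both ticks, and at Hist1h2ba and Hist1h2aa neither does.

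The members left over had separate regions within the range of the others. The linker genes Hist1h1b and Hist1h1e had 821 and 601 bp of Smad3 and 820 and 640 bp of JMJD3. The H4 genes Hist1h4b, Hist1h4c, Hist1h4d and Hist1h4f had 701, 930, 730 and 1440 bp of Smad3 and 640, 811, 740 and 611 bp of JMJD3. For Hist1h4m the widest Smad3 region, 1500 bp, and the widest JMJD3 region, 1380 bp, lay at different loci of the gene, at chr13:21923331-21924830 and chr13:21903051-21904430. Of the H3 genes, Hist1h3c had 761 and 611 bp, Hist1h3d 710 and 980 bp, and Hist1h3e 1060 bp of Smad3. The unpaired Hist1h2ab, an H2A gene, had 831 and 890 bp. The unpaired H2B genes Hist1h2be and Hist1h2bh had 1521 and 1270 bp of Smad3 and 870 bp of JMJD3 each.

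Peaks naming histone genes were concentrated at the promoters. Of 213 Smad3 peaks that named a histone gene, 158 (74.2%) lay within 1 kb of its TSS, against 25.4% of all Smad3 peaks, and of 105 JMJD3 peaks, 84 (80.0%) did, against 25.2%. In dense clusters the closest gene is never far, and 0 of these peaks lay over 50 kb from the TSS. Peaks beyond 5 kb named few of the genes, among them Hist1h4h with 8 Smad3 and 3 JMJD3 peaks and Hist1h2ac with 2 and 4. Together the 7 blocks span 482 kb. Smad3 regions covered 17.2% of them and JMJD3 regions 11.7%, against 1.50% and 1.27% of the span of the genome between first and last peaks. The blocks are drawn around start sites of genes that a peak names, while the genome span includes stretches without genes. Higher coverage is thus partly set by that choice, and like blocks around other genes were not measured. The longest stretch between blocks on chromosome 13, 1477813 bp without a member, was covered to 1.56% by Smad3 and 1.01% by JMJD3. The stretch of 193393 bp between the first and the second block was covered to 8.31% and 5.61%, and that of 160488 bp before the testis pair to 0.505% and 0.262%.

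Sequence motifs in the promoters followed histone type as well. RefSeq held 57 promoters for 56 of the 62 genes, and motifs were searched on both strands of the 300 bases. The TATA element TATAAA was in 34 of 57 (59.6%), against 13.6% of all 32851 promoters of the table. Matches counted at any position and on either strand. These shares are thus not those of promoters with a TATA element near the start site. CCAAT was in 49 of 57 (86.0%), against 37.4%, and was present in all promoters of H1, H2A, H2B and H3 genes but in 3 of 11 H4 promoters. ATTTGCAT, the octamer known from H2B promoters and bound by Oct factors, was in 14 (24.6%), against 1.74%, in 7 of 16 H2A and 7 of 15 H2B promoters and in 0 of the H1, H3 and H4 promoters. Windows of divergent partners overlap, so the same copy can count for an H2A and an H2B gene.

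For the short Smad-binding motif GTCT the histone promoters were near the background, with 54 of 57 (94.7%) against 88.0% of all promoters. Its palindrome GTCTAGAC was in 2 promoters (3.51%), against 0.213%, and these were the facing windows of the pair Hist1h2an and Hist1h2bp. GGCGCC, another sequence bound by Smad proteins, was in 6 (10.5%), against 11.9%. CAGCGC was in 4 (7.02%) and TGANTCA, the AP-1 motif, in 3, against 17.3% and 7.81% of all promoters, and the Ets-type motif CGGAAG was in 5, against 16.9%. A match is only a string of letters in this window and is no evidence of a bound site.

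Genes that work with clustered histones carried both factors as well. Replacement histones are made throughout the cell cycle from genes outside the clusters, and 11 of 11 had a Smad3 and 10 of 11 a JMJD3 promoter peak, against the 73.1% and 57.1% of all named genes. The one without JMJD3 was H2afy2, a macroH2A gene. Smad3 covered 1351 bp at H2afx, 1220 bp at H2afz and 1370 bp at H3f3b, and JMJD3 covered 1220, 1310 and 1150 bp in the same order. The medians of this list, 791 bp with Smad3 and 965 bp with JMJD3, lie nearer to those of all genes than the clustered histone genes do.

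Of 19 genes for factors that transcribe and process histone mRNA, 18 had Smad3 and 17 had JMJD3. Npat, a coactivator of clustered histone genes, had JMJD3 (970 bp) and no Smad3 promoter peak. The cleavage factor genes Cpsf2 and Cpsf3 had Smad3 (1100 and 481 bp) and no JMJD3. Slbp, encoding the stem-loop binding protein, had 1121 and 1320 bp, and E2f1, a cell cycle transcription factor, had the widest regions of the list, 2411 and 2630 bp. Of 16 histone chaperone and import genes, 16 had Smad3 and 15 had JMJD3. Hira, an H3.3 chaperone gene, had its nearest JMJD3 peak 1031 bp from the TSS, just outside the limit, and Nasp had the widest JMJD3 region, 2280 bp, with 1090 bp of Smad3. With the 50% of peaks in the widest regions, JMJD3 fell to 11 of 19 factor genes and 8 of 16 chaperone genes.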

How the data were processed

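Per the submitters' processing notes, the tools were CASAVA, Bowtie 0.12.7 and MACS 1.4 and the build mm9. What each tool did, which thresholds were set and how input DNA was used is not given in the sources used here. Per the file headers, the deposited lists hold 1 row per peak with its position, the signed distance of its midpoint from the closest RefSeq TSS, and that gene's symbol, Entrez ID, start, end and strand. Peaks were listed per library by the authors.

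Computed here (Python 3.11.15, pandas 2.3.3, numpy 2.4.6, scipy 1.17.1, matplotlib 3.10.9) were promoter peaks (midpoint within 1 kb), regions (peaks joined at gaps of up to 10 bp, 70562 for Smad3 and 45018 for JMJD3), their widths, sharing and TSS coverage. Width replaced the planned peak score, which the lists lack, and is an imperfect stand-in for enrichment. Shares have exact Clopper-Pearson intervals, and no test was made. Joining and counting were tested on simulated peaks. All members are accounted for. Those named with values are the 10 ranking highest by the lower of both width percentiles, genes with 1 factor or none, those of Hist2, Hist3 and Hist4, and those in shared regions, and further members were named after their values were seen. Members and lists were chosen with earlier results of these data known. RefSeq tables of GRCm38.p6 gave promoters and names, with all 62 members matched by Entrez ID. Alternatives were TSS windows of 500, 2500 and 5000 bp, other joining distances and assignment by position. Others were the 50% of peaks in the widest regions and equal numbers of peaks chosen in the same way.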

Additional observations from a re-analysis of the deposited data

How the results depend on the processing

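Of 187 alternative values for 31 results, 180 stayed within 1.5 times of the reported value and 7 moved further. Many of these results are counts at or near their highest possible value, which can fall but cannot rise by that factor. The number that stayed is therefore a weak measure of stability. With the 50% of peaks in the widest regions, JMJD3 promoter peaks were at 4 H3 genes in place of 8. They were at 11 histone mRNA factor genes in place of 17 and at 8 chaperone genes in place of 15. With peaks joined at 0 bp, the median width at histone promoters was 561 bp for Smad3 and 640.5 bp for JMJD3, and 0 regions of Smad3 and 0 of JMJD3 were credited to at least 2 histone genes. Windows of 500, 2500 and 5000 bp gave 60, 61 and 61 genes with Smad3 and 51, 52 and 53 with JMJD3. The shares of all named genes in these windows are not given here. With 1 library per antibody and no peak height, neither the spread between replicates nor the depth behind a peak can be given, and a missing peak is not shown to be a missing signal. No paired analysis was possible because each group holds 1 library.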

Other observations

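Several histone genes appear in the lists under other names. Among RefSeq entries, 70 genes carry a Hist1 to Hist4 cluster symbol or synonym, and 66 of them are named in the lists, 4 under Gm symbols that the rule did not take. Gm11276 (synonym Hist1h2ap) and Gm11277 (synonym Hist1h2br) each had a widest Smad3 region of 1731 bp and a widest JMJD3 region of 1670 bp. Gm13646 (synonym Hist1h2bq) had 1121 and 1260 bp. Gm11275, whose synonym in that table is Hist1h4m, had 361 bp of Smad3 and shared a JMJD3 region of 1380 bp with the gene the lists call Hist1h4m. All 4 thus had promoter peaks of both factors. Another 4 genes, Hist1h1t, Hist1h2ao, Hist1h2aj and Hist1h2al, are the closest gene of no peak in either list. Hist1h1t encodes a linker histone of the testis.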
